A study of Mus musculus with 8 samples.

Results

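Prior efferocytosis under LPS/IFNγ stimulation was examined by comparing stimulated efferocytic Mϕ (LPSEff) with stimulated naïve Mϕ (LPS). These groups held 4 of the 8 samples of the series, 2 in each, and the others were unstimulated naïve (Ctrl) and unstimulated efferocytic Mϕ (Eff). Of 55359 listed genes, 16309 were compared, namely those whose normalized counts averaged 10 or more over the 8 samples. Of these, 656 had a mean under 10 in LPS and are described apart, since their reads may come from the fibroblasts that were fed to the Mϕ. All samples were bone marrow-derived macrophages (BMDMs) of C57BL/6 mice grown with M-CSF and GM-CSF. Mϕ of the Eff and LPSEff groups were co-cultured for 16 h with 5 apoptotic cells per Mϕ, whereas Ctrl and LPS Mϕ were cultured without them. The apoptotic cells were NIH-3T3 CA fibroblasts, a mouse line carrying a caspase-8 that is activated by a dimerizer, and they received 10 nM of it for 6 h beforehand. The dimerizer stayed in the co-culture at 10 nM, so that Eff and LPSEff Mϕ were exposed to it and Ctrl and LPS Mϕ were not, and its part cannot be told apart from that of the apoptotic cells. After the apoptotic cells had been washed off, LPS and LPSEff Mϕ were stimulated for 6 h with LPS at 100 ng/mL together with IFNγ at 100 U/mL, and CD45+ cells were selected with magnetic beads. Nothing in the labels says whether the 2 samples of a group came from separate cultures or mice, so that p-values measure only the spread between these samples.

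Efferocytosis is the uptake of apoptotic cells by phagocytes. The engulfed cell is degraded in the phagolysosome and leaves the Mϕ with a load of lipids, sterols, nucleotides, amino acids and iron, which is sensed by nuclear receptors and other transcription factors. LPS acts through TLR4 and IFNγ through its own receptor, and together they drive the inflammatory programme of cytokines, nitric oxide synthesis and antigen presentation on which earlier uptake of apoptotic cells is known to act. The comparison asks how the mRNAs of stimulated Mϕ differ when the stimulus follows a meal of apoptotic cells.

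The reads recovered from the deposited values numbered 6548938 and 9344411 in LPS and 11267193 and 7472370 in LPSEff, within the range of 3481288 to 12020918 of the series, and 3 reads were worth 2.38 to 3.88 normalized counts in these 4 samples. Markers of Mϕ were at like levels. The 12 macrophage markers, among them Lyz2, Cd68, Csf1r and Adgre1, summed to 1.4% and 1.32% of all normalized counts in LPS and to 1.34% and 1.8% in LPSEff. None of them was called different, and their log2 fold changes lay between −0.22 and 0.47. Ptprc, which encodes CD45, the protein used for the selection, had 7001 and 10958 normalized counts in LPS and 5185 and 10842 in LPSEff. Fibroblast markers summed higher in LPSEff than in LPS. The 32 listed ones, of which 1 stood at 0 in both LPS samples, summed to 0.0917% and 0.0622% in LPS and to 0.169% in each LPSEff sample. In unstimulated Mϕ the sums were 0.0289% to 0.0342% in Ctrl, and 0.062% and 0.13% in Eff. The sum of Eff replicate 1 thus lay below both LPS samples, which received no fibroblasts. Fstl1, which was well detected in LPS, made up a large part of the sums there. Single markers could go the other way. In Eff replicate 1 Col6a3 had 605 and Col1a2 582 normalized counts, beside 15.5 and 17.3, and 28.5 and 83.3, in LPS. Of the 28 tested fibroblast markers, 25 were higher in Eff than in Ctrl, compared with 48.5% of all tested genes. Both the fibroblasts and the BMDMs are of mouse, so that the species of a read does not tell them apart. For bulk RNA in general, fewer cells of a type and less RNA per cell cannot be told apart. Neutrophil markers (11 listed) summed to 0.063% and 0.0663% in LPS and to 0.0946% and 0.108% in LPSEff. Of the 8 tested, however, 5 had a log2 fold change below 0 and 3 above, with a median of −0.23. The 9 dendritic cell markers summed to 0.126% and 0.254% in LPS and to 0.0936% and 0.136% in LPSEff. The markers of endothelial and epithelial cells reached 0.0469% in LPS and 0.0357% in LPSEff at most, and those of T, NK and B cells, of mast cells and basophils, and of erythroid cells and megakaryocytes stayed at or below 0.0173% in each of the 4 samples. The haemoglobin genes Hba-a1 and Hbb-bs were listed at 0 in all 4. Apart from the fibroblast list, limma and edgeR called 0 genes of these lists (7 at an unadjusted p under 0.05 in limma), and DESeq2 called Mmp8 and S100a8 of the neutrophil list and Pf4 of the erythroid and megakaryocyte list. The signs of the medians of the macrophage, neutrophil and dendritic cell lists turned when 1 stimulated library was left out.

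**Figure D1:**
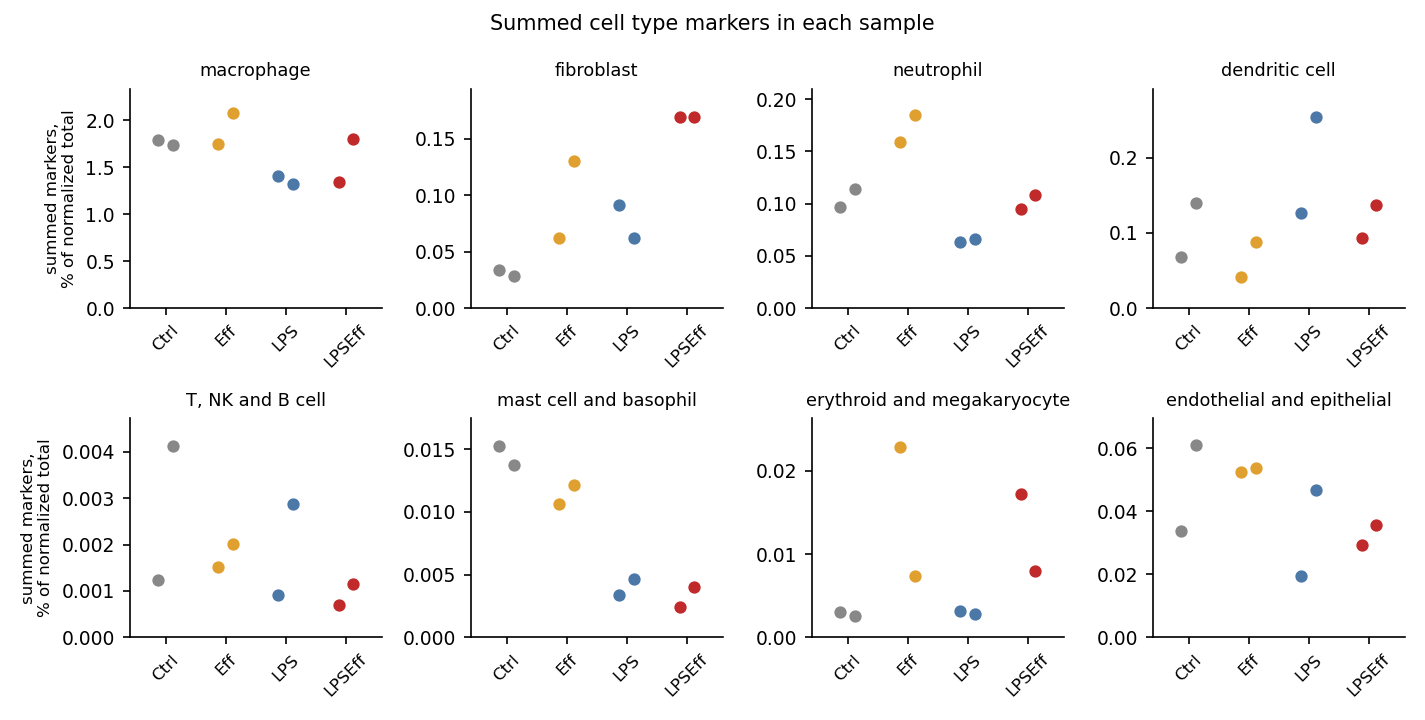
Summed normalized counts of 8 cell type marker lists in each sample, as a percentage of all normalized counts of that sample (y axis, from 0), for Ctrl, Eff, LPS and LPSEff (x axis, 2 points each). The fibroblast sum is 0.169% in both LPSEff samples, above both LPS samples, while the macrophage sums of both groups overlap.

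In LPSEff compared with LPS, the genes called higher included 12 extracellular matrix and fibroblast genes with an LPS mean of at least 10, the antioxidant enzymes Gclc, Nqo1, Srxn1 and Prdx1, the lipid droplet gene Plin2, the receptor gene Il1rl1 and the chemokine gene Cxcl5. Those called lower included Aldh1a2, which forms retinoic acid, and the desaturase Scd1. In limma's test, 119 genes were higher in LPSEff (0.73% of those tested) and 7 were lower (0.0429%), together 126 genes (0.773%), at a Benjamini-Hochberg adjusted p under 0.05. Among the 15653 genes averaging 10 or more in LPS, 90 rose (0.575%) and 7 fell (0.0447%), and among the 656 under 10, 29 rose (4.42%) and 0 fell. All calls had a log2 fold change of at least 1.02 in size, and in all 126 the 2 LPSEff samples lay outside the range of the 2 LPS samples. Over all tested genes, both LPSEff samples lay above both LPS samples in 19.3% and below them in 17%. Without regard to the test, 516 of the 15653 genes had a log2 fold change of at least 1 and 487 of at most −1. The median log2 fold change of all tested genes was −0.0025, and 49.7% of them were above 0. At an unadjusted p under 0.05 stood 1679 genes, and the smallest adjusted p was 0.00337. Of the called genes, 125 were protein-coding and 1 was a long non-coding RNA.

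The number of calls depended on single libraries. Without LPSEff replicate 1, limma called 0 genes (1134 at an unadjusted p under 0.05), so that no call stood without that library. Without LPSEff replicate 2, 6 genes were called higher and 0 lower. Without LPS replicate 1 these were 52 and 4, and without LPS replicate 2 they were 17 and 0. Leaving out 1 of the unstimulated samples, which enter the fit only through the shared spread, gave 59 to 82 higher and 1 to 2 lower genes. A library left alone in its group was assumed to vary as the other groups do. In the fit without the unstimulated groups, 66 genes were higher and 0 were lower. DESeq2 called 287 and 81 genes on the recovered reads, and edgeR 116 and 10.

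**Figure D2:**
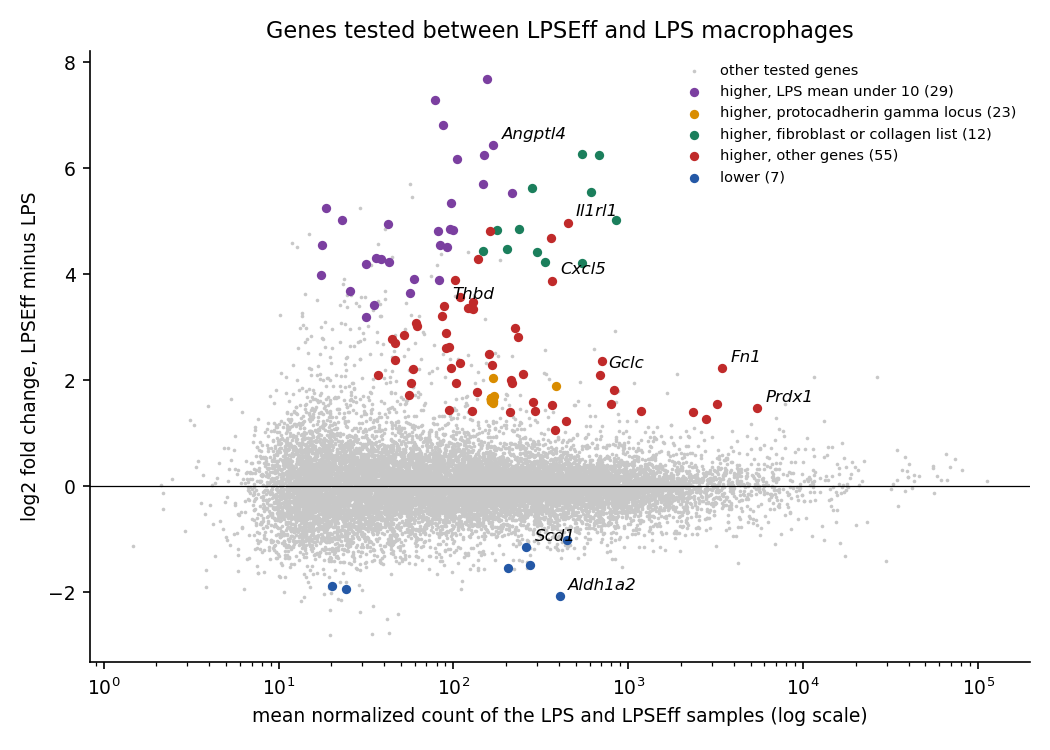
Log2 fold change between LPSEff and LPS (y axis) against the mean normalized count of the 4 stimulated samples (x axis, log scale) for the 16309 tested genes. Grey points were not called, and coloured points are the 126 called genes by group. Called genes lie at 1.02 or more from 0, with 119 above and 7 below.

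A single locus supplied 23 of the 126 called genes. All 22 protocadherin gamma genes, which encode cell adhesion proteins from variable first exons joined to shared constant exons, were called higher, together with the long non-coding RNA BC037039 at the same place. They lie on chromosome 18 from 37794846 to 37975014 (GRCm39). Their reads could not be told apart. Leaving Pcdhgc3 aside, the other 21 had 51 to 57 and 88 to 100 recovered reads in the LPS samples and 291 to 311 and 208 to 219 in the LPSEff samples. Pcdhga12 is an example, with 73.7 and 96.5 normalized counts in LPS and 235 and 272 in LPSEff (log2 fold change 1.57, SE 0.25, adjusted p = 0.039). Counts this alike cannot be separate measurements of 22 genes. With the protocadherin genes and BC037039 taken as 1, there were 104 called loci, 97 of them higher. Fitted as 1 entry (Pcdhga12) in place of 23, which also changes the adjustment for the other genes, 86 genes were higher and 5 lower.

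Gclc, Nqo1, Srxn1 and Prdx1, genes of the NRF2 antioxidant response, rose in LPSEff. NRF2 (gene Nfe2l2) binds antioxidant response elements together with small MAF proteins and drives enzymes of glutathione synthesis, peroxide removal and quinone reduction, and it is kept low by KEAP1. Of the 27 tested genes of a list of NRF2 targets and iron handling genes, 4 were called higher and 0 lower. Of all tested genes, 0.73% were called higher and 0.0429% lower. In 23 of the 27 the log2 fold change was above 0, compared with 49.7% of all tested genes. Both LPSEff samples exceeded both LPS samples in 22 of the 27 (81.5%, compared with 19.3% of all tested genes). The median log2 fold change of the list was 0.82, compared with −0.0025 for all genes. Of the 27, edgeR and DESeq2 called 4 and 9 higher, compared with 116 and 287 of the 16309 tested genes.

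Gclc (ENSMUSG00000032350, chromosome 9 from 77661797 to 77701770 in GRCm39) encodes the catalytic subunit of glutamate-cysteine ligase, the first enzyme of glutathione synthesis. It had 244 and 271 normalized counts in LPS and 1317 and 935 in LPSEff. Both LPSEff samples stood far above the LPS samples, which were close to each other (log2 fold change 2.10, SE 0.28, adjusted p = 0.0257). Nqo1 (ENSMUSG00000003849, chromosome 8 from 108113835 to 108129934), a quinone reductase, had 71.1 and 109 normalized counts in LPS and 329 and 355 in LPSEff (log2 fold change 1.95, SE 0.34, adjusted p = 0.0499). Of all called genes its adjusted p was the closest to the threshold, and the call held in 7 of 10 settings, being lost with a pseudocount of 0.5, with a filter at a mean of 50 and with only the LPS and LPSEff samples. Srxn1 (ENSMUSG00000032802, chromosome 2 from 151947436 to 151957687), the sulfiredoxin that restores overoxidized peroxiredoxins, had 1811 and 1455 normalized counts in LPS and 5392 and 4151 in LPSEff (log2 fold change 1.54, SE 0.23, adjusted p = 0.0314). Its substrate family includes Prdx1 (ENSMUSG00000028691, chromosome 4 from 116532123 to 116558398), a peroxide-reducing enzyme with 2685 and 3015 normalized counts in LPS and 6771 and 9246 in LPSEff (log2 fold change 1.48, SE 0.25, adjusted p = 0.0446). In all these genes the 2 groups did not overlap.

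Further members had higher values without passing limma's test, and DESeq2 called the following 3. Hmox1, the heme oxygenase that frees iron from heme, had 6199 and 2728 normalized counts in LPS and 26176 and 11279 in LPSEff (log2 fold change 2.06, SE 0.46, adjusted p = 0.124). Both LPSEff samples lay above both LPS samples, while the samples within each group differed by more than 2 times. Gclm, the modifier subunit of glutamate-cysteine ligase, had 577 and 684 normalized counts in LPS and 1702 and 1711 in LPSEff (log2 fold change 1.44, adjusted p = 0.0962), and the thioredoxin reductase Txnrd1 had 4841 and 4442 normalized counts in LPS and 9762 and 9935 in LPSEff (log2 fold change 1.09, adjusted p = 0.0738). The mRNAs of the regulators themselves, Nfe2l2 and Keap1, had log2 fold changes of −0.13 and −0.04 (adjusted p = 0.931 and 0.98). Of the genes called higher outside the list, 3 with related functions were picked after the values had been seen. Gss, glutathione synthetase, had 158 and 157 normalized counts in LPS and 435 and 412 in LPSEff (log2 fold change 1.42, SE 0.23, adjusted p = 0.0414), with other annotated genes overlapping it on the opposite strand. Ptgr1, a reductase of prostaglandins and reactive aldehydes, had 388 and 410.3 normalized counts in LPS and 1049 and 1315 in LPSEff (log2 fold change 1.56, SE 0.24, adjusted p = 0.0379). Slc48a1, which carries heme out of the phagolysosome, had 685 and 593 normalized counts in LPS and 1921 and 1523 in LPSEff (log2 fold change 1.42, SE 0.20, adjusted p = 0.0273).

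To show the sequence around the start of such genes, the promoters of Srxn1 and Prdx1 are printed from RefSeq's GRCm38.p6 assembly, from 250 bases before to 50 bases after the annotated start, 5′ to 3′ on the gene's strand. They are the called members of the list whose window holds the motif TGANTCAGC, searched on both strands, and capitals mark the match.
Srxn1, chr2:152105274-152105573, plus strand: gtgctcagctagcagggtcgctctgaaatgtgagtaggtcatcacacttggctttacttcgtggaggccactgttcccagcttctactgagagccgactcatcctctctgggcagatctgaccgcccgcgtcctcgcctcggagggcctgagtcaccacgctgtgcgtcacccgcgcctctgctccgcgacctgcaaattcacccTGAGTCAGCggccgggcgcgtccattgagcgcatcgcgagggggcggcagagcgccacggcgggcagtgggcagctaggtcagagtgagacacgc
Prdx1, chr4:116685349-116685648, plus strand: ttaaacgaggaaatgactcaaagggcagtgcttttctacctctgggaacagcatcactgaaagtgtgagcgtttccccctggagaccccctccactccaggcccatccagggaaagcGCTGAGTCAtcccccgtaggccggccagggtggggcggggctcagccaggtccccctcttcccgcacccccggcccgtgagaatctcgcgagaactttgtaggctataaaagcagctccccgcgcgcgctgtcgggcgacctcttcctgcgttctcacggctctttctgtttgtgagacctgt
The motif, in which N is any base, is only one form of the core of the antioxidant response element and was chosen after the values had been seen. It begins 45 bases before the start of Srxn1 and, on the other strand, 133 bases before that of Prdx1. It was found in 3 of the 22 list members with a promoter in the table (Srxn1, Prdx1 and Osgin1), in 3 of 69 called higher genes (4.35%, with Epb41l1 as the third) and in 1.42% of the 10235 tested genes with one. A match describes the letters in this window and does not show binding, by NRF2 or by any other factor.

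A few lipid-handling genes rose. PPARs are nuclear receptors for fatty acids, and their targets store, oxidize or release lipids. Of 21 tested PPAR-linked genes, 3 were called higher and 0 lower (0.73% of all tested genes were called higher), with a median log2 fold change of 0.34. Among the 19 averaging 10 or more in LPS, 1 was called and the median was 0.18. Plin2 (ENSMUSG00000028494, chromosome 4 from 86565912 to 86588459), the coat protein of lipid droplets, had 1766 and 1517 normalized counts in LPS and 3652 and 4255 in LPSEff (log2 fold change 1.27, SE 0.20, adjusted p = 0.0377). Angptl4 (ENSMUSG00000002289, chromosome 17 from 33992724 to 34000804), a secreted inhibitor of lipoprotein lipase, was nearly absent in LPS, with 3 and 2 recovered reads (3.88 and 2.03 normalized counts), and had 283 and 386 in LPSEff (log2 fold change 6.43, SE 0.44, adjusted p = 0.00337). In unstimulated Mϕ it had 36.2 and 26.6 in Ctrl and 199.8 and 445 in Eff. Pdk4, which restrains pyruvate oxidation, had 0 and 1.02 normalized counts in LPS and 41.2 and 49.5 in LPSEff (log2 fold change 5.02, adjusted p = 0.0177). Both genes belong to those with a mean under 10 in LPS, where the fitted fold change depends on the pseudocount of 1. Among the members that were not called, the fatty acid translocase Cd36 had 723 and 2222 normalized counts in LPS and 1745 and 3862 in LPSEff (adjusted p = 0.611). Lipoprotein lipase (Lpl) had 12931 and 22320 normalized counts in LPS and 6216 and 11435 in LPSEff (adjusted p = 0.415), with both LPSEff samples below both LPS samples.

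Sterol genes showed few calls. Scd1, a desaturase of fatty acids and a target of LXR and SREBP, fell from 404 and 316 normalized counts in LPS to 163 and 159 in LPSEff (log2 fold change −1.15, SE 0.20, adjusted p = 0.049). Its call held in 4 of 10 settings and was lost with edgeR, equal totals, quantile normalization, a pseudocount of 0.5, all genes above 0 and only the LPS and LPSEff samples. It was the single call of 16 tested LXR targets, whose median log2 fold change was 0.08 and −0.07 without LPSEff replicate 1. Abca1, an exporter of cholesterol, had 6967 and 3172 normalized counts in LPS and 7162 and 10289 in LPSEff (adjusted p = 0.44). Abcg1, another, had 3389.9 and 3323 in LPS and 3377 and 2856 in LPSEff (adjusted p = 0.92), and neither was called. Of 26 genes of sterol and fatty acid synthesis driven by SREBP, 0 were called in limma, 6 of them at an unadjusted p under 0.05, DESeq2 called 0 higher and 1 lower, and 6 lay above 0, with a median of −0.35. Without LPS replicate 2, that median was 0.01, and without LPS replicate 1 it was −0.74. Both LPSEff samples lay below both LPS samples in 10 of the 26 (38.5%, compared with 17% of all tested genes) and above them in 1. In unstimulated Mϕ 0 of the 26 were higher in Eff than in Ctrl, compared with 48.5% of all tested genes. Their median log2 fold change there was −1.07. Acly, which makes cytosolic acetyl-CoA, had 1698 and 1944 normalized counts in LPS and 1870 and 1767 in LPSEff (log2 fold change 0.00, adjusted p = 1).

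**Figure D3:**
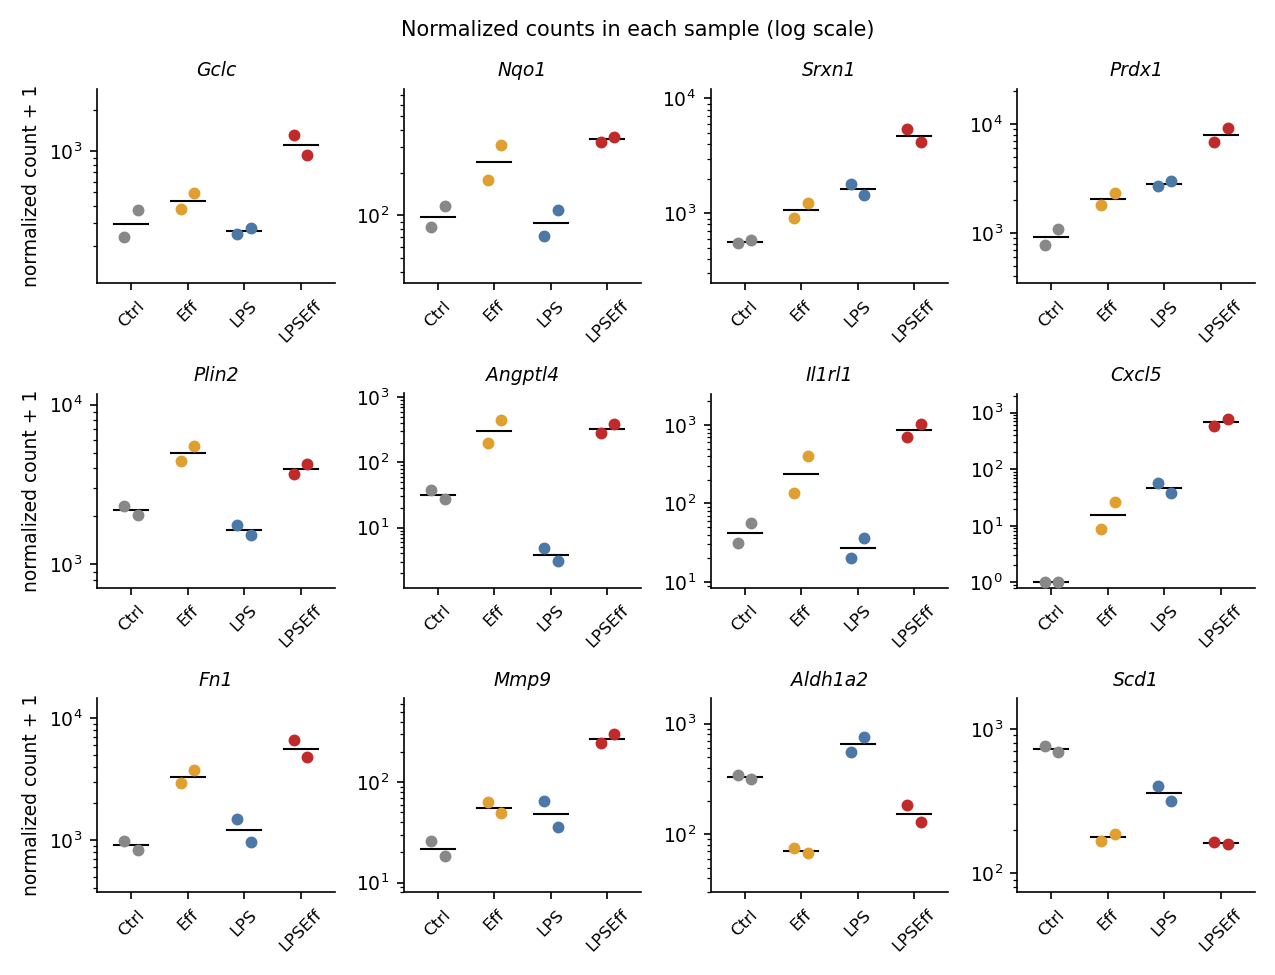
Normalized counts plus 1 of 12 named genes in each sample (y axis, log scale), for Ctrl, Eff, LPS and LPSEff (x axis). Points are the 2 samples of a group and bars their mean on the log scale. In each panel the LPSEff points lie outside the range of the LPS points, above it for 10 genes and below it for Aldh1a2 and Scd1.

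Several genes for receptors and secreted proteins rose, and the part of fibroblast reads in them was not tested. Il1rl1 (ENSMUSG00000026069, chromosome 1 from 40468730 to 40504575) encodes ST2, the receptor of the alarmin IL-33. It had 19.4 and 35.5 normalized counts in LPS and 708 and 1034 in LPSEff, a difference of many times the spread within a group (log2 fold change 4.97, SE 0.54, adjusted p = 0.014). In unstimulated Mϕ its values were 30.5 and 56.1 in Ctrl and 136 and 400.1 in Eff. Cxcl5 (ENSMUSG00000029371, chromosome 5 from 90907186 to 90909483), a chemokine that attracts neutrophils through CXCR2, had 55.6 and 36.6 normalized counts in LPS and 587 and 780.5 in LPSEff (log2 fold change 3.88, SE 0.54, adjusted p = 0.0273). It was listed at 0 in both Ctrl samples and had 7.89 and 25.4 in Eff. Thbd, thrombomodulin, which turns thrombin towards activation of protein C, had 20.7 and 9.14 normalized counts in LPS and 207 and 118 in LPSEff (log2 fold change 3.41, SE 0.41, adjusted p = 0.0174), and its values in Ctrl were 166 and 132. The protein C receptor Procr had 7477 and 8235 normalized counts in LPS and 18269 and 18530 in LPSEff (log2 fold change 1.23, adjusted p = 0.111) and was not called, although its samples were close within each group.

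Cxcl5 was the single call of limma and edgeR among 23 CC and CXC chemokine genes, whose median log2 fold change was 0.08. DESeq2 also called Ppbp and Pf4 higher and Ccl22 lower. Ppbp, another chemokine for CXCR2, had 9.05 and 6.09 normalized counts in LPS and 193 and 88.8 in LPSEff (log2 fold change 3.97). Pf4, a platelet chemokine, had 200.5 and 145 in LPS and 1503 and 702 in LPSEff (log2 fold change 2.58). In both, each LPSEff sample exceeded each LPS sample, but neither passed limma's test (adjusted p = 0.116 and 0.102). The other end was held by Ccl22, a ligand of CCR4, with 29538 and 57812 normalized counts in LPS and 14179 and 16922 in LPSEff (log2 fold change −1.42, adjusted p = 0.14). Ccl6, with 26171 and 26643 normalized counts in LPS and 38184 and 47216 in LPSEff, was not called either (adjusted p = 0.428).

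Genes of matrix turnover were among the calls. Mmp9, a gelatinase, had 64.7 and 34.5 normalized counts in LPS and 243 and 299.5 in LPSEff (log2 fold change 2.49, SE 0.37, adjusted p = 0.0319), and Adamts1, a protease of proteoglycans, had 89.2 and 79.2 normalized counts in LPS and 374 and 313 in LPSEff (log2 fold change 2.01, SE 0.33, adjusted p = 0.0414). These were the 2 calls of limma and edgeR among 21 tested metalloproteinase and inhibitor genes, against 0.73% of all tested genes called higher. Of the 21, 18 lay above 0 and 12 (57.1%, compared with 19.3% of all tested genes) had both LPSEff samples above both LPS samples (median 0.44). Timp1, an inhibitor of such proteases, had 120.3 and 154 normalized counts in LPS and 622 and 504 in LPSEff without passing limma's test (adjusted p = 0.106), and was called by DESeq2 along with Mmp8. Mmp12, the macrophage elastase that the study followed, had 30954 and 62643 normalized counts in LPS and 33903 and 92168 in LPSEff. The LPSEff samples of Mmp12 lay on both sides of the higher LPS sample, and its log2 fold change of 0.34 (SE 0.59, adjusted p = 0.928) was smaller than its error.

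Fn1 (ENSMUSG00000026193, chromosome 1 from 71624673 to 71692419), fibronectin, had 1482 and 969 normalized counts in LPS and 6574 and 4766 in LPSEff (log2 fold change 2.22, SE 0.27, adjusted p = 0.0177). Mϕ and fibroblasts both express it, and Ctrl Mϕ, which received no fibroblasts, had 986 and 822. It was the single call of limma and edgeR among 27 growth factor and tissue-repair genes, with a median of 0.19, to which DESeq2 added Fgf7 and Pdgfa. The highly expressed Gpnmb, a membrane glycoprotein, had 25945 and 58576 normalized counts in LPS and 27444 and 71829 in LPSEff (adjusted p = 0.961). Spp1, osteopontin, had 27596 and 53250 in LPS and 22054 and 64254 in LPSEff (adjusted p = 0.997). In both, the samples of a group differed more than the groups. Of 32 genes of TGFβ ligands, receptors and targets, 2 were called higher by limma and edgeR and 4 by DESeq2. In limma 0.73% of all tested genes were called higher. Ltbp2, a relative of the proteins that bind latent TGFβ in the matrix, had 33.6 and 14.2 normalized counts in LPS and 262 and 207 in LPSEff (log2 fold change 3.35, SE 0.45, adjusted p = 0.0257). Tgfbr3, the co-receptor betaglycan, had 20.7 and 12.2 normalized counts in LPS and 169 and 143 in LPSEff (log2 fold change 3.21, SE 0.37, adjusted p = 0.0151). The median of the list was 0.07 (−0.0032 without LPS replicate 2), and Tgfb1 itself had 1685 and 998 normalized counts in LPS and 1779.8 and 1512 in LPSEff (adjusted p = 0.827).

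Values in unstimulated Mϕ are given beside those of some called genes. Among the 55 called higher genes outside the protocadherin locus and the fibroblast and collagen lists, 28 had a lower mean in LPS than in Ctrl, as had 50.4% of all tested genes. The following were picked from them after their values had been seen, so that their pattern is a description. Emp1, a membrane protein, had 288 and 451 normalized counts in LPS and 1202 and 1357 in LPSEff (log2 fold change 1.82, SE 0.23, adjusted p = 0.0197), beside 2283 and 2209.7 in Ctrl. Angptl2, a secreted angiopoietin-like protein, had 197 and 268 normalized counts in LPS and 1153 and 1209.5 in LPSEff (log2 fold change 2.36, SE 0.28, adjusted p = 0.0174), beside 1062 and 1909.6 in Ctrl. The LPSEff samples of Emp1 lay below both Ctrl samples, and those of Angptl2 within their range. Ctps1, which makes CTP for nucleic acid and phospholipid synthesis, had 18.1 and 22.3 normalized counts in LPS and 83.9 and 110.4 in LPSEff (log2 fold change 2.20, SE 0.25, adjusted p = 0.015), beside 159.9 and 166 in Ctrl. Slc16a1, the lactate and pyruvate transporter MCT1, had 139.7 and 142 normalized counts in LPS and 410.1 and 447 in LPSEff (log2 fold change 1.60, SE 0.18, adjusted p = 0.015), beside 318 and 337 in Ctrl and 348 and 389 in Eff. Its LPSEff samples thus lay above all unstimulated samples, whereas those of Ctps1 lay below both Ctrl samples. Cbx6, a Polycomb protein, had 45.3 and 27.4 normalized counts in LPS and 183 and 179 in LPSEff (log2 fold change 2.33, SE 0.31, adjusted p = 0.0257), beside 192 and 179 in Ctrl. Trim47, a TRIM family protein, had 29.7 and 17.3 in LPS and 88.7 and 92.6 in LPSEff (log2 fold change 1.95, SE 0.29, adjusted p = 0.0314), beside 156 and 170.0 in Ctrl. Cbx6 and Trim47 each overlap another annotated gene on their strand, Npcd and Trim65. Ncs1, a calcium sensor, had 9.05 and 15.2 normalized counts in LPS and 83.1 and 100.3 in LPSEff (log2 fold change 2.85, SE 0.34, adjusted p = 0.0174), beside 64.7 and 50.3 in Ctrl. From the rest of the 55 genes, Acp3, an acid phosphatase, had 1165 and 1422 normalized counts in LPS and 3160.5 and 3668 in LPSEff (log2 fold change 1.40, SE 0.21, adjusted p = 0.0314). Klhl21, an adaptor of a ubiquitin ligase, had 114 and 114 in LPS and 355 and 258 in LPSEff (log2 fold change 1.40, SE 0.21, adjusted p = 0.0326).

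Only 7 genes fell in the test across all 8 samples, each with a mean of at least 10 in LPS. Aldh1a2 (ENSMUSG00000013584, chromosome 9 from 71122630 to 71203527), the enzyme that makes retinoic acid from retinal, had 556 and 752 normalized counts in LPS and 182 and 128 in LPSEff (log2 fold change −2.07, SE 0.25, adjusted p = 0.0174). The groups lay far apart, and in unstimulated Mϕ the Eff samples (73.6 and 66.3) likewise lay below the Ctrl samples (343 and 317). No other of the 14 tested genes of retinoic acid synthesis and response was called by limma or edgeR, whereas DESeq2 called 2 higher and 1 lower. Crabp1, a cellular retinoic acid-binding protein, had 1.29 and 0 normalized counts in LPS and 45.9 and 69.8 in LPSEff (adjusted p = 0.0765). Each LPSEff sample of Crabp1 exceeded each LPS sample, against the direction of Aldh1a2.

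Histone genes made up 2 of the 7. H1f1, a linker histone, had 383 and 416 normalized counts in LPS and 110.0 and 183 in LPSEff (log2 fold change −1.49, SE 0.25, adjusted p = 0.0438), and H2bc15, a histone H2B gene, had 34.9 and 29.4 normalized counts in LPS and 7.13 and 8.88 in LPSEff (log2 fold change −1.88, SE 0.31, adjusted p = 0.0414). The call of H2bc15 held in 6 of 10 settings and was lost with edgeR, a pseudocount of 5, a filter at a mean of 50 and only the LPS and LPSEff samples. Replication-dependent histone genes are near-identical copies, so that values of single genes are uncertain. Of 39 tested, 2 lay above 0, and both LPSEff samples were below both LPS samples in 19, or 48.7%, compared with 17% of all tested genes. The median log2 fold change was −0.58. Genes of DNA replication and mitosis (33 tested, 0 called in limma and in DESeq2, 6 at an unadjusted p under 0.05) had a median of −0.21, with Mki67 at 2465 and 2230 normalized counts in LPS and 1524 and 1603 in LPSEff (log2 fold change −0.58, adjusted p = 0.305).

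The remaining falls were in genes of other functions. Zfp101, a zinc finger gene, had 34.9 and 43.7 normalized counts in LPS and 8.71 and 10.2 in LPSEff (log2 fold change −1.94, SE 0.32, adjusted p = 0.0412). Frmd4b, a scaffold protein, had 286 and 328 in LPS and 89.5 and 122 in LPSEff (log2 fold change −1.54, SE 0.25, adjusted p = 0.039), and a small nuclear RNA gene lies within it on the same strand. Ttc7, a tetratricopeptide repeat protein, had 578 and 613 in LPS and 298 and 287 in LPSEff (log2 fold change −1.02, SE 0.16, adjusted p = 0.039), the smallest change of all called genes. In all 3 the samples of a group were close to each other and the groups did not overlap.

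The cytokines that the study measured did not pass limma's test. Il1b had 49516 and 30115 normalized counts in LPS and 37496 and 35413 in LPSEff (log2 fold change −0.08, SE 0.28, adjusted p = 0.968), and its groups overlapped. Il6 had 10573 and 8099.7 normalized counts in LPS and 6706 and 6060 in LPSEff (log2 fold change −0.54, SE 0.24, adjusted p = 0.513), with both LPSEff samples below both LPS samples. Il10, an anti-inflammatory cytokine, had 45.3 and 10.2 normalized counts in LPS and 219 and 73.6 in LPSEff (log2 fold change 2.49, SE 0.93, adjusted p = 0.396). Both LPSEff samples of Il10 lay above both LPS samples, and its replicates differed by several times within each group. Tbp, a reference gene, had 241 and 256 normalized counts in LPS and 241 and 239.9 in LPSEff (adjusted p = 0.975). Gapdh, a glycolytic enzyme and also a reference gene, had 751 and 547 in LPS and 1555 and 783 in LPSEff (adjusted p = 0.526), with both LPSEff samples above both LPS samples. An exact permutation test of 2 samples against 2 cannot go below p = 0.333, so that for a single gene such a test could not reach the threshold.

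Of 19 tested interleukins and other pro-inflammatory cytokines, 0 were called in limma or edgeR and 7 had an unadjusted p under 0.05 in limma. DESeq2 called 4 lower, namely Csf2, Il12b, Tnf and Tnfsf15, compared with 81 of all 16309 tested genes. In 9 of the 19 both LPSEff samples lay below both LPS samples, in 0 above, compared with 17% and 19.3% of all tested genes. The median log2 fold change of the 19 was −0.35. The values of the members with the lowest log2 fold changes show the spread. Csf2, which encodes GM-CSF, had 111 and 35.5 normalized counts in LPS and 10.3 and 10.2 in LPSEff (log2 fold change −2.51, adjusted p = 0.257). Il12b, a subunit of IL-12 and IL-23, had 19966 and 29324 normalized counts in LPS and 7089 and 13201 in LPSEff (log2 fold change −1.32, adjusted p = 0.307), and Il12a, the other subunit of IL-12, had 138 and 278 in LPS and 53.8 and 83.8 in LPSEff (log2 fold change −1.53, adjusted p = 0.446). In these 3 genes the groups did not overlap. Tnfsf15, a TNF family cytokine, had 5799.5 and 6514 normalized counts in LPS and 1697 and 2993 in LPSEff (log2 fold change −1.45, adjusted p = 0.124), and Tnf had 16647 and 12948 in LPS and 7749 and 7573 in LPSEff (log2 fold change −0.94, adjusted p = 0.197). At the other end stood Csf3, which encodes G-CSF, with 5579.6 and 828 normalized counts in LPS and 5811 and 3350.5 in LPSEff (adjusted p = 0.794). Il1a, with 44202 and 22256 in LPS and 35151 and 29612 in LPSEff, was near 0 (log2 fold change 0.04). Of 26 anti-inflammatory cytokines and feedback inhibitors, 0 were called in limma (4 at an unadjusted p under 0.05), DESeq2 called Socs2 lower, and the median was −0.05 (0.19 without LPSEff replicate 2). Il1rn, the IL-1 receptor antagonist, had 15323 and 9014 normalized counts in LPS and 25499 and 16611 in LPSEff (log2 fold change 0.81, adjusted p = 0.427). Cd274, which encodes PD-L1, had 9841 and 11727 in LPS and 9895 and 12121 in LPSEff (log2 fold change 0.03, adjusted p = 0.987).

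MHC class II and co-stimulation genes had mostly negative log2 fold changes, and their median changed sign without LPS replicate 2. Of 18 tested, 0 were called in limma, 3 had an unadjusted p under 0.05, DESeq2 called Icosl lower, and 17 had a log2 fold change below 0, with a median of −0.61, and in 4 (22.2%, compared with 17% of all tested genes) both LPSEff samples lay below both LPS samples. Without LPS replicate 2 the median was 0.08, and without LPS replicate 1 it was −1.27. Replicate 2 had the higher sum of the list in every group, with 62619 and 149162 normalized counts in LPS and 50910 and 88450 in LPSEff. In unstimulated Mϕ, 0 of the 18 were higher in Eff than in Ctrl, with a median log2 fold change of −0.62. Cd74, the invariant chain, had 14322 and 36738 normalized counts in LPS and 9369 and 20159 in LPSEff (log2 fold change −0.74, adjusted p = 0.781), and H2-Ab1, a class II chain, had 9126 and 26096 in LPS and 7801 and 16368 in LPSEff (log2 fold change −0.45, adjusted p = 0.93). Icosl, the ligand of ICOS, had 664 and 924 normalized counts in LPS and 287 and 363 in LPSEff (log2 fold change −1.28, adjusted p = 0.0934), with groups that did not overlap. The dendritic cell markers had the same sign, with 6 tested, all below 0, a median of −0.81 and 0 called by limma, edgeR or DESeq2 (2 at an unadjusted p under 0.05 in limma). Their median was 0.02 without LPS replicate 2, and in unstimulated Mϕ 0 of the 6 were higher in Eff than in Ctrl (median −0.71). Ccr7, the receptor of migrating dendritic cells, had 7649 and 14409 normalized counts in LPS and 6243 and 5719.9 in LPSEff, and Itgax, which encodes CD11c, had 2149.6 and 6898 in LPS and 1459 and 6035 in LPSEff. Zbtb46, a transcription factor of conventional dendritic cells, had 429 and 745 normalized counts in LPS and 286 and 362 in LPSEff, and Flt3, their growth factor receptor, had 82.8 and 220.4 in LPS and 31.7 and 59.6 in LPSEff. Their part in the values of the MHC class II genes was not tested.

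Interferon-stimulated genes differed little. Of 50 tested, 0 were called in limma and 1 had an unadjusted p under 0.05, DESeq2 called Mx1 lower, and their log2 fold changes lay between −0.83 and 0.31 with a median of −0.01 (0.14 without LPS replicate 2). Rsad2, an antiviral enzyme, had 42308 and 28716 normalized counts in LPS and 47731 and 37825 in LPSEff (log2 fold change 0.29, adjusted p = 0.863), and Parp14, a mono-ADP-ribosyltransferase, had 14835 and 20773 in LPS and 15543 and 19883 in LPSEff (log2 fold change 0.00). Mx1, at the lower end, had 3960.3 and 5378 normalized counts in LPS and 2569.9 and 2617 in LPSEff (log2 fold change −0.83, adjusted p = 0.135). Of 15 arginine, nitric oxide and polyamine genes, 0 were called in limma, edgeR or DESeq2 and 2 had an unadjusted p under 0.05 in limma, with a median of 0.28. The inducible nitric oxide synthase Nos2 had 37734 and 24545 normalized counts in LPS and 50429 and 39259 in LPSEff (log2 fold change 0.55, adjusted p = 0.555), and Slc7a2, an arginine transporter, had 34078 and 34670 in LPS and 43952 and 48559 in LPSEff (log2 fold change 0.43, adjusted p = 0.508). Arg1, an arginase, differed between the replicates by more than between the groups, with 1711 and 116 normalized counts in LPS and 4999.6 and 759 in LPSEff (log2 fold change 2.12, adjusted p = 0.712).

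**Figure D4:**
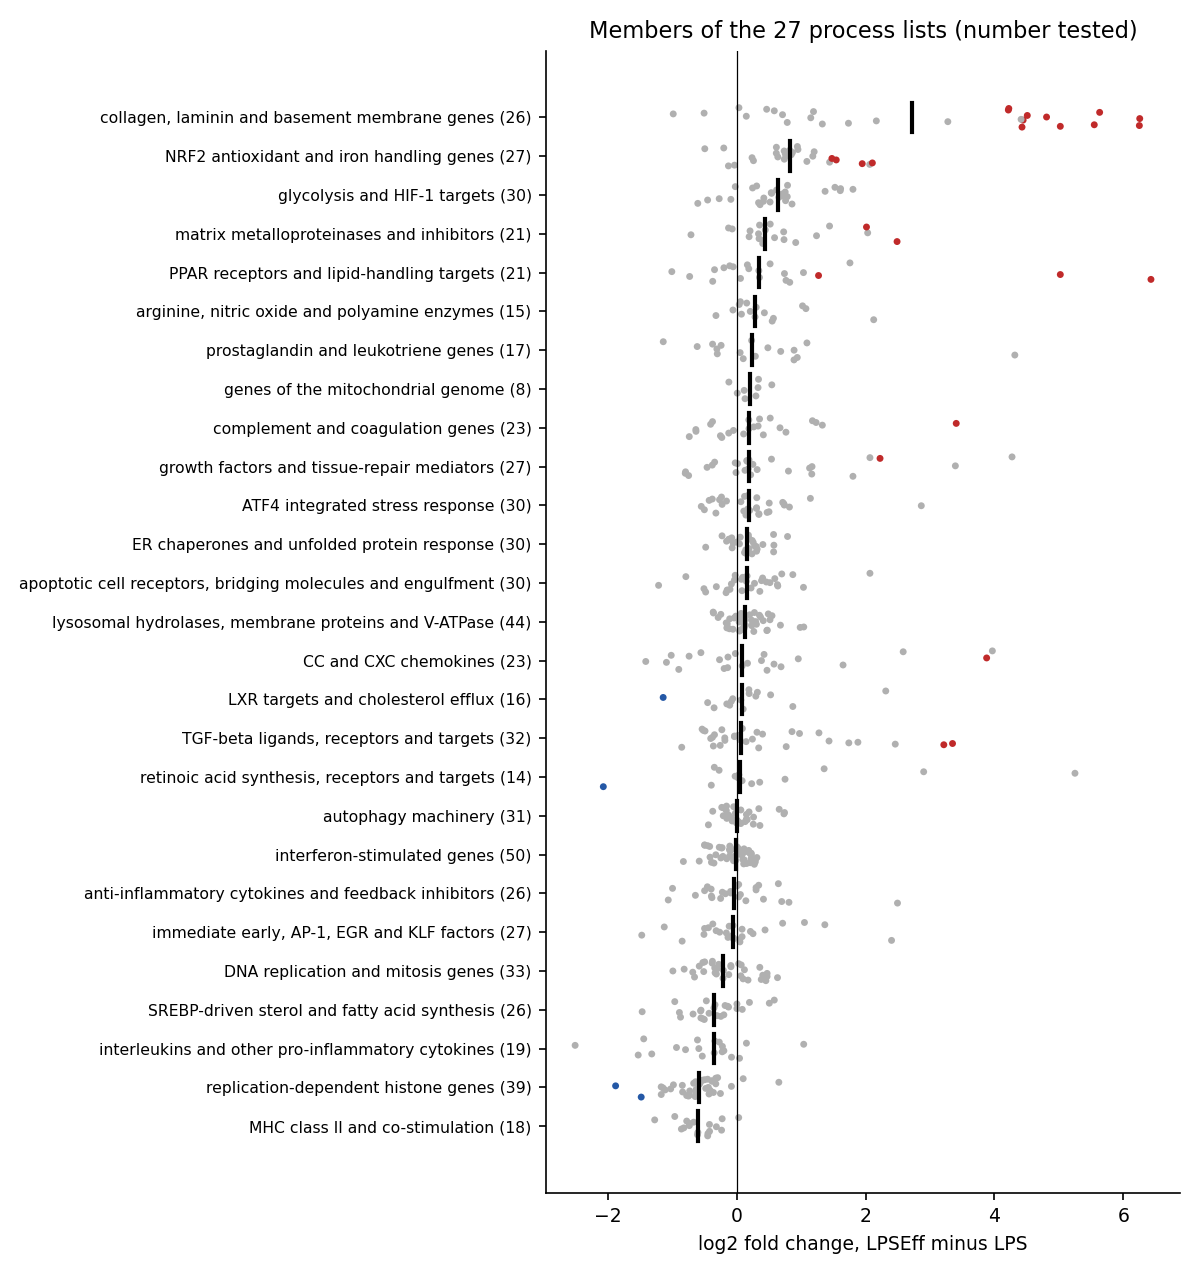
Log2 fold change between LPSEff and LPS (x axis) of the tested members of 27 process lists (y axis, number tested in parentheses). Each point is a gene, red if called higher, blue if called lower and grey otherwise, and black bars are medians. The medians run from −0.61 for MHC class II and co-stimulation to 2.72 for collagen and laminin genes.

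In the other lists, limma and edgeR called 0 genes unless said otherwise, and DESeq2 few. Glycolysis and HIF-1 targets had 0 of 30 called in limma and in DESeq2 (2 at an unadjusted p under 0.05), while 25 lay above 0 with a median of 0.63. Without LPSEff replicate 1 the median was 0.13, and without LPS replicate 2 it was 0.21. Vegfa, an angiogenic factor, had 766 and 136 normalized counts in LPS and 1929 and 661 in LPSEff (log2 fold change 1.80, adjusted p = 0.542). Pkm, pyruvate kinase, had 4805 and 3813 in LPS and 8152 and 5967 in LPSEff (log2 fold change 0.70, adjusted p = 0.318). Receptors for apoptotic cells, bridging molecules and engulfment genes had 0 of 30 called in limma (8 at an unadjusted p under 0.05), while DESeq2 called Marco lower, and a median of 0.15 (−0.0093 without LPS replicate 1). Thbs1, a bridging molecule, had 20342 and 4334 normalized counts in LPS and 49191 and 31438 in LPSEff (log2 fold change 2.07, adjusted p = 0.306). Lrp1, an engulfment receptor, had 14347 and 17663 in LPS and 19792 and 24121 in LPSEff (log2 fold change 0.46, adjusted p = 0.62). Lysosomal genes had 0 of 44 called in limma and in DESeq2 (4 at an unadjusted p under 0.05), 32 above 0 and a median of 0.12. Psap, prosaposin, had 59285 and 62980 normalized counts in LPS and 88781 and 85762 in LPSEff (adjusted p = 0.617), and Ctsd, a cathepsin, had 54736 and 61239 in LPS and 50394 and 77605 in LPSEff (adjusted p = 0.959). The autophagy machinery had 0 of 31 called in limma (2 at an unadjusted p under 0.05) and a median of 0.0047 (−0.05 without LPS replicate 1). Sqstm1, an autophagy receptor that DESeq2 called higher, had 9499.9 and 11323 normalized counts in LPS and 18071 and 16590 in LPSEff (log2 fold change 0.74, adjusted p = 0.222).

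Stress lists had few calls too. ER chaperones and unfolded protein response genes (30 tested, 0 called in limma and in DESeq2, 3 at an unadjusted p under 0.05) had a median of 0.16. Hspa5, the main chaperone of the ER, had 17149 and 17186 normalized counts in LPS and 18292 and 22279 in LPSEff (adjusted p = 0.802). ATF4 targets (30 tested, 0 called in limma, 4 at an unadjusted p under 0.05) had a median of 0.18 (−0.10 without LPS replicate 2), and DESeq2 called Aldh1l2 higher. The cystine transporter Slc7a11, also known as an NRF2 target, had 9976 and 11651 normalized counts in LPS and 14668 and 21979 in LPSEff (log2 fold change 0.74, adjusted p = 0.529). Cebpb, a transcription factor, had 12592 and 5052 in LPS and 19018 and 8969 in LPSEff (log2 fold change 0.71, adjusted p = 0.724). Immediate early genes (27 tested, 0 called in limma, 6 at an unadjusted p under 0.05) had a median of −0.06 (0.32 without LPS replicate 1), and DESeq2 called Batf3 lower. Junb, an AP-1 subunit, had 9529.6 and 5843 normalized counts in LPS and 10123 and 5132 in LPSEff (adjusted p = 0.989). Prostaglandin and leukotriene genes (17 tested, 0 called in limma, 5 at an unadjusted p under 0.05, and 1 higher and 1 lower in DESeq2) had a median of 0.23. Ptgs2, the inducible cyclooxygenase, had 45345 and 37842 normalized counts in LPS and 44402 and 44283 in LPSEff (adjusted p = 0.931). Complement and coagulation genes (23 tested) had Thbd as the single call of limma and edgeR, to which DESeq2 added Procr, and a median of 0.19. C3, the central complement protein, had 14922 and 16169 normalized counts in LPS and 12569 and 13871 in LPSEff (log2 fold change −0.23, adjusted p = 0.871). Of 13 genes of the mitochondrial genome, 8 were tested, 0 were called in limma, edgeR or DESeq2, 0 had an unadjusted p under 0.05 in limma, and the median was 0.21 (−0.26 without LPS replicate 1). mt-Co1, a subunit of cytochrome c oxidase, had 14483 and 19139 normalized counts in LPS and 10994 and 21203 in LPSEff (adjusted p = 0.957). mt-Co2, mt-Atp8 and mt-Nd4l, which Mϕ use as well, were listed at 0 in LPS and LPSEff, so that a listed 0 need not mean an absent mRNA.

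Genes of extracellular matrix that fibroblasts make were the largest group among the strongest rises, with 12 of the 20 largest among genes averaging 10 or more in LPS. Of 26 tested collagen, laminin and basement membrane genes, 11 were called higher and 0 lower, with a median log2 fold change of 2.72. Of 28 tested fibroblast markers 13 were called higher, with a median of 4.34. Of all tested genes 0.73% were called higher. Several collagen genes are on both lists, so that the counts of the lists are not separate. They also include genes that passed the filter through the groups in which they are high. Among list members averaging 10 or more in LPS, 8 of 22 and 8 of 21 were called higher, with medians of 1.95 and 3.28. Of all tested genes with such a mean, 0.575% were called higher. Together these lists held 12 of the 90 called higher genes with a mean of at least 10 in LPS. Their means in LPS were 10.7 to 57.9, and 11 of the 12 were also called higher in Eff than in Ctrl. Col6a3, a collagen VI chain, had 15.5 and 17.3 normalized counts in LPS and 1514 and 1162 in LPSEff (log2 fold change 6.26, SE 0.84, adjusted p = 0.0257). Col4a1, a chain of basement membrane collagen, had 18.1 and 30.5 in LPS and 1558 and 845 in LPSEff (log2 fold change 5.55, adjusted p = 0.00337). Lamb1, a laminin chain, had 14.2 and 7.11 in LPS and 588 and 515 in LPSEff (log2 fold change 5.63, adjusted p = 0.00337). All of these were low but detected in LPS. Col1a2, a chain of fibrillar collagen I, had 28.5 and 83.3 normalized counts in LPS and 1913 and 1369 in LPSEff (log2 fold change 5.02, adjusted p = 0.0319). Aebp1, a collagen-binding protein of the matrix, had 7.76 and 20.3 normalized counts in LPS and 1288 and 866 in LPSEff (log2 fold change 6.27, SE 0.52, adjusted p = 0.00439). In each of these the LPSEff samples exceeded the LPS samples by more than 10-fold.

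The others of the 12 were Col1a1, Col6a1, Nid1 (nidogen), Hspg2 (perlecan), Bgn (biglycan), Serpinh1 (a chaperone of collagen) and Pdgfra, a receptor that marks fibroblasts, with log2 fold changes from 4.22 for Nid1 to 4.85 for Serpinh1. In the lists not every gene followed. Col5a1, a chain of collagen V, had 410 and 305 normalized counts in LPS and 609 and 608 in LPSEff (adjusted p = 0.623). Lamc1, another laminin chain, had 1212 and 1009 in LPS and 1669 and 1639.7 in LPSEff (adjusted p = 0.27), and both were well above the floor without efferocytosis. Fstl1, the fibroblast marker with the highest values in LPSEff, had 2869 and 3259 normalized counts in LPS and 3949 and 5892 in LPSEff (log2 fold change 0.66, adjusted p = 0.64). Outside the lists, the 20 largest rises included Cpe, Fbln2, Hmga2, Nav3, Arhgef17 and Ets1, with log2 fold changes of 4.81, 4.69, 4.28, 3.89, 3.56 and 3.48. Hmga2, a chromatin protein of proliferating mesenchymal cells, had 12.9 and 12.2 normalized counts in LPS and 232 and 298 in LPSEff. Fbln2, a matrix glycoprotein, had 14.2 and 43.7 in LPS and 862 and 525 in LPSEff. Yap1, a transcriptional co-activator of the Hippo pathway, had 19.4 and 21.3 normalized counts in LPS and 129 and 190.4 in LPSEff (log2 fold change 2.89, adjusted p = 0.0311). These genes and the fibroblast markers were high in the same samples, and the part of fibroblast reads in any of the called genes was not tested.

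The 29 called genes with a mean under 10 in LPS are kept apart. Their median log2 fold change was 4.81, and 7 of them were on the fibroblast or collagen lists. In 13 of the 29 neither LPS sample had more than 3 reads, and 2 were listed at 0 in both. With these 2 set to 3 reads per LPS sample, the median was 4.56. Aqp1, a water channel, had 1.29 and 0 normalized counts in LPS and 326 and 298 in LPSEff (adjusted p = 0.00971). Efemp1, a fibulin of the matrix, had 1.29 and 0 in LPS and 131 and 217 in LPSEff (adjusted p = 0.0151). Igfbp6, a binding protein of insulin-like growth factors, had 0 and 0 in LPS and 143 and 170.1 in LPSEff (adjusted p = 0.0241), and its call was lost with edgeR. The LPS samples of these 3 held at most 1 read each. Col3a1, a fibrillar collagen chain, had 6.47 and 1.02 normalized counts in LPS and 257 and 338 in LPSEff (adjusted p = 0.014), and Fkbp10, a chaperone of collagen, had 0 and 7.11 in LPS and 179.7 and 234 in LPSEff (adjusted p = 0.0319). Among the other genes were Dcn, Prrx1, Sox9, Dlk1 and Ddr2, known from mesenchymal cells. All 29 had a higher mean log2 value in Eff than in Ctrl, 6 of them with a call.

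The same genes were followed in unstimulated Mϕ, whose samples entered the comparison above only through the filter and the shared spread. All 119 genes higher in LPSEff than in LPS were also higher in Eff than in Ctrl, without a threshold, compared with 48.5% of all tested genes, and all 7 lower genes were lower, compared with 51.5%. The 119 are not independent, since 23 were entries of the protocadherin locus. A further 29 had a mean under 10 in LPS and passed the filter through other groups, with median means of 2.98 in Ctrl and 64.2 in Eff. The share of all tested genes is thus no measure for these. Apart from them and the 12 genes of the fibroblast and collagen lists, 55 of 55 were higher. By limma's test, 35 genes were higher (0.215%) and 6 were lower (0.0368%) in Eff than in Ctrl, of which 25 and 2 were also called with stimulation. Among genes averaging 10 or more in LPS, the 55 other called higher genes had a median log2 fold change of 2.29 with and 1.26 without stimulation. For the 12 genes of the fibroblast and collagen lists it was 4.84 and 4.76. The first of each pair chose the genes and is therefore not comparable with the second as a measure of size. Gclc had 232 and 370.1 normalized counts in Ctrl and 376 and 493 in Eff (log2 fold change 0.55, adjusted p = 0.929), beside the 2.10 under stimulation. Ltbp2 had 26.7 and 26.6 in Ctrl and 39.4 and 71.3 in Eff (log2 fold change 0.97, adjusted p = 0.859), beside 3.35.

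Whether efferocytosis acted differently with and without LPS/IFNγ was tested directly, as the difference between both log2 fold changes. No gene was called (0 of 16309, smallest adjusted p = 0.9999 in limma), 311 had an unadjusted p under 0.05, and edgeR and DESeq2 called 0 each, with 369 and 244 at an unadjusted p under 0.05. The difference was 1.55 for Gclc, 2.68 for Thbd and 3.21 for Angptl4 on the log2 scale. A gene called in one setting and not in the other is thus not shown to respond differently.

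**Figure D5:**
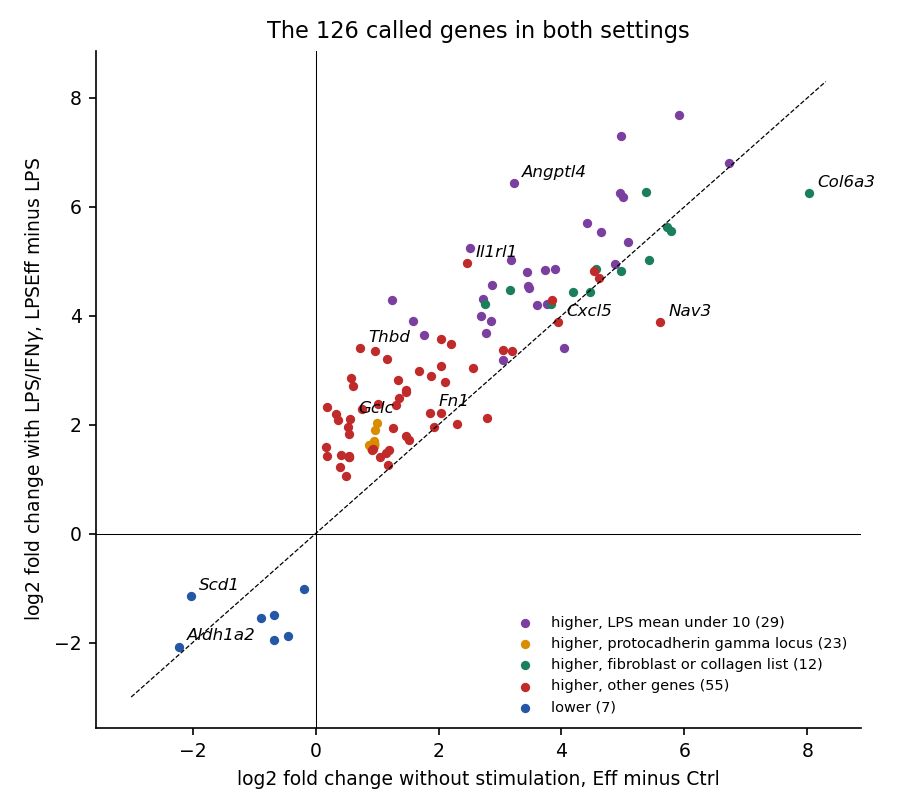
Log2 fold changes of the 126 called genes without stimulation (Eff minus Ctrl, x axis) and with LPS/IFNγ (LPSEff minus LPS, y axis), coloured by group. The dashed line marks equal values, and the y axis values chose the genes. All 119 higher genes lie above 0 on both axes and all 7 lower genes below 0 on both.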

How the data were processed

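Total RNA of 8 BMDM samples was depleted of rRNA and sequenced. The authors trimmed reads with cutadapt, removed rRNA with Bowtie2, mapped to mm39 with STAR, counted with htseq-count and normalized with DESeq2. The versions are not given in the sources used here. The authors deposited a signal per gene, the normalized count. In each sample 100% of values were whole multiples of 1 step (tolerance 0.01), which gave the recovered reads. Genes were named from GENCODE for GRCm39 (98.9% of 55359).

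Values were tested as log2(normalized count + 1), on which changes of low genes come out too small, by limma with a mean-variance trend (version 3.58.1, R 4.3.3). The model was fitted to the means of 4 groups over 8 samples, with Benjamini-Hochberg adjustment over 16309 genes, and was tested on simulated data. The alternatives were pseudocounts of 0.5 and 5, other filters, only the 2 groups, a replicate block, equal totals, quantile normalization, edgeR (4.0.16) with TMM, DESeq2 (1.42.0) and leaving out each replicate. Count tests with the block and the protocadherin locus as 1 entry were alternatives chosen after seeing the data. Named genes were the study's, the 20 largest rises and 10 largest falls among calls with a mean of at least 10 in LPS, the 6 largest rises under 10, up to 4 called members of a list, or 2 highly expressed members where fewer than 2 were called, and cell type markers. Some genes that the rule names are not reported here. Genes outside that rule were picked after the values had been seen. The members, the 27 process lists and the 8 marker lists were chosen with earlier results of these data known.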

Additional observations from a re-analysis of the deposited data

How the results depend on the processing

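The numbers of called genes moved with the test, with the samples in the fit and with the replicate number. As reported, 119 genes were higher and 7 lower, 90 of the higher ones averaged 10 or more in LPS and 29 calls fell on the process lists. Higher calls numbered 96 to 155 with pseudocounts of 0.5 and 5, other filters, equal totals, quantile normalization and edgeR, and equal totals and quantile normalization gave 15 and 17 lower genes. Fitting only the LPS and LPSEff samples gave 66 higher, 0 lower, 42 higher with an LPS average of 10 or more and 19 on the lists, in the same order as above. DESeq2 gave 287, 81, 213 and 64, including all 119 higher genes. With the protocadherin locus as 1 entry, 59 higher genes averaged 10 or more in LPS. Leaving out each sample in turn gave 0 to 82 higher, 0 to 4 lower, 0 to 54 higher with an LPS average of 10 or more and 0 to 26 on the lists. Among the named genes, edgeR lost the calls of H2bc15, Scd1 and Igfbp6, and DESeq2 added calls that included Ccl22, Sqstm1, Procr, Mmp8, S100a8, Pf4, Hmox1 and Ppbp. The cause of these shifts was not tested, beyond the fewer samples of some fits. No named called gene changed its sign under an alternative. When 1 stimulated library was left out, the medians of 17 of 35 lists changed sign, 11 of them process lists, while those of the NRF2, collagen and fibroblast lists ranged from 0.78 to 0.93, 2.63 to 3.46 and 3.91 to 4.30.

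With a block for replicate number, 704 genes were higher and 433 lower, 598 of the higher averaged 10 or more in LPS and 140 calls were on the lists, including all 119 higher and 7 lower genes. The share of higher genes among the calls was thus 61.9%, compared with 94.4% without the block and 78% in DESeq2, so that the preponderance of higher calls depends on these choices. With counts and the block, edgeR gave 715, 518, 605 and 150 and DESeq2 606, 476, 533 and 148, and DESeq2 called 29 genes for the difference between both efferocytosis effects. Nothing in the labels ties samples of 1 number to a common preparation. Across genes, which are not independent, the differences between replicates 1 and 2 correlated with r = 0.595 between LPS and LPSEff and with r from 0.404 to 0.595 over 6 pairs of groups. Depth limits genes near 3 reads, worth up to 3.88 normalized counts in the stimulated samples.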
